A study of Arabidopsis thaliana with 4 samples.

Results

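MYB67 peaks in which the authors' scan marked no site of the MYB67 motif made up 202 of the 5390 peaks in the deposited list, or 3.75%. The members were taken from the authors' gene table by its column for the motif, and the other 5188 peaks, which hold at least 1 site, served for comparison. The list comes from DNA affinity purification sequencing (DAP-seq), in which a transcription factor made outside the cell is held on beads and pulls fragments out of a library of naked genomic DNA. Per the labels, MYB67 with a Halo tag (2 libraries) and the Halo tag from an empty vector (2 libraries) were made in wheat germ extract and mixed with DNA of the accession Col-0, which was taken from leaf according to the protocol and is labelled root as a tissue. Binding was thus measured in vitro, without chromatin, nucleosomes or partner proteins, and no gene expression was measured. The peaks are 1 list for all libraries, so no value has an error between replicates and library depth is unknown. The intervals below describe the spread between peaks or the counting error, and peaks are not independent replicates.

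MYB67 belongs to the R2R3 MYB factors, plant regulators with a pair of MYB repeats that each insert a helix into the major groove of DNA. Many of them bind short A- and C-rich elements that lie near genes of lignin, flavonoid and wall synthesis. In the authors' motif for MYB67, which has 10 positions, the most frequent bases at positions 4 to 8 spell ACCTA. Position 4 is A in 99.7%, position 6 is C in 99.7% and position 8 is A in 99.5%, whereas position 5 allows A in 13.5% and position 7 allows A in 30.4%. The matrix was derived by the HOMER program from sequences of these same peaks, and a peak without a site lacks a match to it that reached a q of 0.05 in the scan by FIMO, not every MYB-like word.

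The definition of a peak without a site rests on a loose threshold. The header of the authors' motif file counts the motif in 3885 target sequences (72.78%) at HOMER's own score threshold. The rate in background sequences was 9.15%. Taking the targets as the 5338 nuclear peaks of the list, 1453 lie outside, against 197 nuclear peaks without a FIMO site. With the q limited to 0.0183, about as many nuclear peaks (3897) hold a FIMO site as HOMER counted target sequences with the motif. Just inside the scan's threshold stood 7 peaks whose best site had a q of 0.0496, with folds of 3.03 to 10.1 (median 3.74). Match scores of the 202 peaks themselves were not used here, so how near each came to the threshold is unknown.

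Peaks without a site were weaker than peaks with one, both before and after width was held. The values in this paragraph are not matched for width, which had a median of 229 bp without a site and 258 bp with one. The fold enrichment of a peak is the authors' ratio of signal over the modelled background. It had a median of 3.84 in peaks without a site (quartiles 3.33 and 4.62, range 1.73 to 8.73, n = 202), against 4.38 in peaks with a site (quartiles 3.76 and 5.57, range 1.28 to 23.2, n = 5188). The groups overlapped over the whole range of the peaks without a site. A total of 313 peaks had a higher fold than the strongest peak without a site. Only 4 of the 202 peaks, or 1.98%, stood among the upper 10% of all peaks by fold, which begins at 7.44, and 64 of them (31.7%) exceeded the median of peaks with a site.

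Width was held because a wider peak offers the scan more sequence. The share of peaks without a site fell with width, at 6.30% of peaks of 195 to 213 bp (69 peaks without a site beside 1026 with one; 95% Wilson interval 5.01 to 7.90%), 4.85% at 214 to 241 bp, 3.54% at 242 to 274 bp, 2.88% at 275 to 320 bp and 1.12% above that (0.639 to 1.94%). In each of the 5 width classes the median fold was lower without a site. In the narrowest class it was 3.48 without a site and 3.67 with one. In the middle class it was 4.39 and 4.64 in the same order, and in the widest class 5.27 (n = 12) and 6.31. With a smooth term for width in a linear model across all peaks, the fold without a site was 0.926 times that with one (95% interval 0.894 to 0.959). Width itself grows with the strength of a peak, so holding it also removes part of the difference in strength, and without the term the ratio was 0.839. Among peaks whose −log10 q reached 10 (44 without a site), the interval included 1 (ratio 0.945, 0.889 to 1.01).

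**Figure D1:**
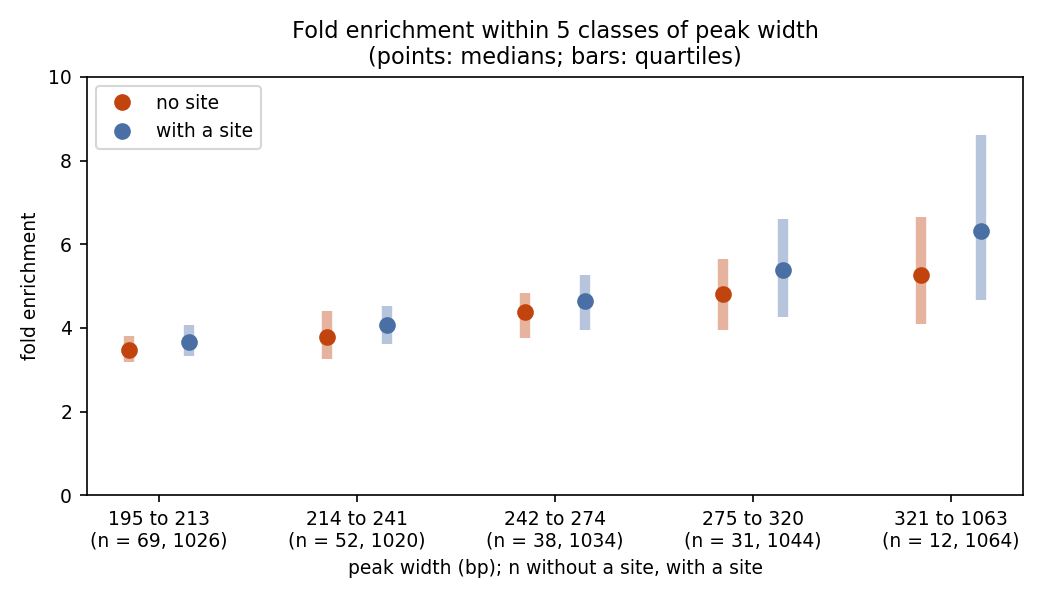
Fold enrichment (vertical axis, the authors' ratio) in 5 classes of peak width in bp (horizontal axis), for peaks without a motif site at the left of each pair and peaks with a site at the right; points are medians and bars run between quartiles. The median is lower without a site in each class, by the most in the widest class, where it is 5.27 against 6.31.

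The −log10 q of the peaks gave the same order. Its median was 6.05 in peaks without a site and 8.23 in peaks with one, and at equal width the difference was -1.69 (95% interval -2.32 to -1.06). A value of at least 10 was reached by 44 peaks without a site (21.8%) and by 2118 peaks with one (40.8%). The summit lay a median of 7.93% of the width away from the middle in peaks without a site, against 6.80% in peaks with one. At equal width this difference was 0.68 percentage points, with an interval of -0.42 to 1.78 that includes 0.

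Median fold moved in small steps with the quality of the best site. In order of rising match, the median fold was 3.84 with no site, 3.93 where the best site had a q above 0.04 (n = 151), 4.08 at 0.03 to 0.04 (n = 318), 4.14 at 0.02 to 0.03 (n = 587), 4.31 at 0.01 to 0.02 (n = 1583) and 4.68 up to 0.01 (n = 2549). Median width rose in the same order, at 229, 233, 239, 249, 253 and 267 bp. Against the 151 peaks with the weakest best sites alone, a comparison added after seeing the data, the ratio of folds at equal width was 0.959 with an interval of 0.908 to 1.01. Against peaks with a best site up to 0.01 it was 0.905 (0.872 to 0.938).

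**Figure D2:**
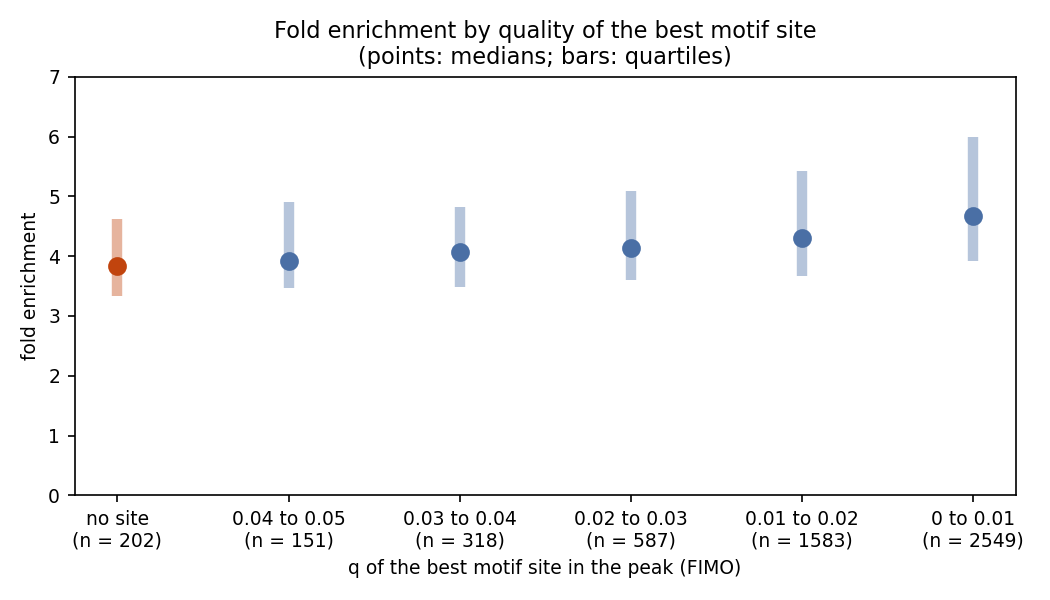
Fold enrichment (vertical axis) by the FIMO q of the best motif site in the peak (horizontal axis), with peaks without a site at the left and the closest matches at the right; points are medians and bars run between quartiles. The median climbs in small steps, 3.84 with no site, 3.93 with the weakest sites and 4.68 with the strongest, and the quartile bars of neighbouring classes overlap.

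Peaks without a site lay near centromeres more often than other peaks. Windows of 3 Mb on each side of rounded centromere positions, at 15, 4, 14, 4 and 12 Mb of chromosomes 1 to 5, held 53 of 197 nuclear peaks without a site (26.9%, 95% Wilson interval 21.2 to 33.5%), against 922 of 5141 with a site (17.9%, 16.9 to 19.0%). The Mantel-Haenszel odds ratio over 10 classes of width was 1.68 (95% interval 1.21 to 2.32). It ran from 1.56 to 1.84 when each chromosome was left out in turn. By chromosome the share without and with a site was 13.95% and 13.3% on chromosome 1, 36.1% and 22.2% on chromosome 2, 36.1% and 20.2% on chromosome 3, 26.7% and 21.7% on chromosome 4, and 25% and 15.5% on chromosome 5. The value without a site was higher on all 5 chromosomes, by little on chromosome 1. With windows of 2 Mb the odds ratio was 1.27 and its interval included 1 (0.830 to 1.93).

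Nearness to centromeres also moved with the best site. The share of nuclear peaks within 3 Mb was 26.9% with no site, 29.9% where the best site had a q above 0.04, 21.5% at 0.03 to 0.04, 19.4% at 0.02 to 0.03, 17.7% at 0.01 to 0.02 and 16.6% up to 0.01. Against the peaks with a best q above 0.04 alone, the odds ratio was 0.863 (0.533 to 1.40), so no difference was called between peaks with no site and those with the weakest sites. Median fold near centromeres was 3.93 without a site and 4.44 with one, and elsewhere 3.84 and 4.38 in the same order.

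**Figure D3:**
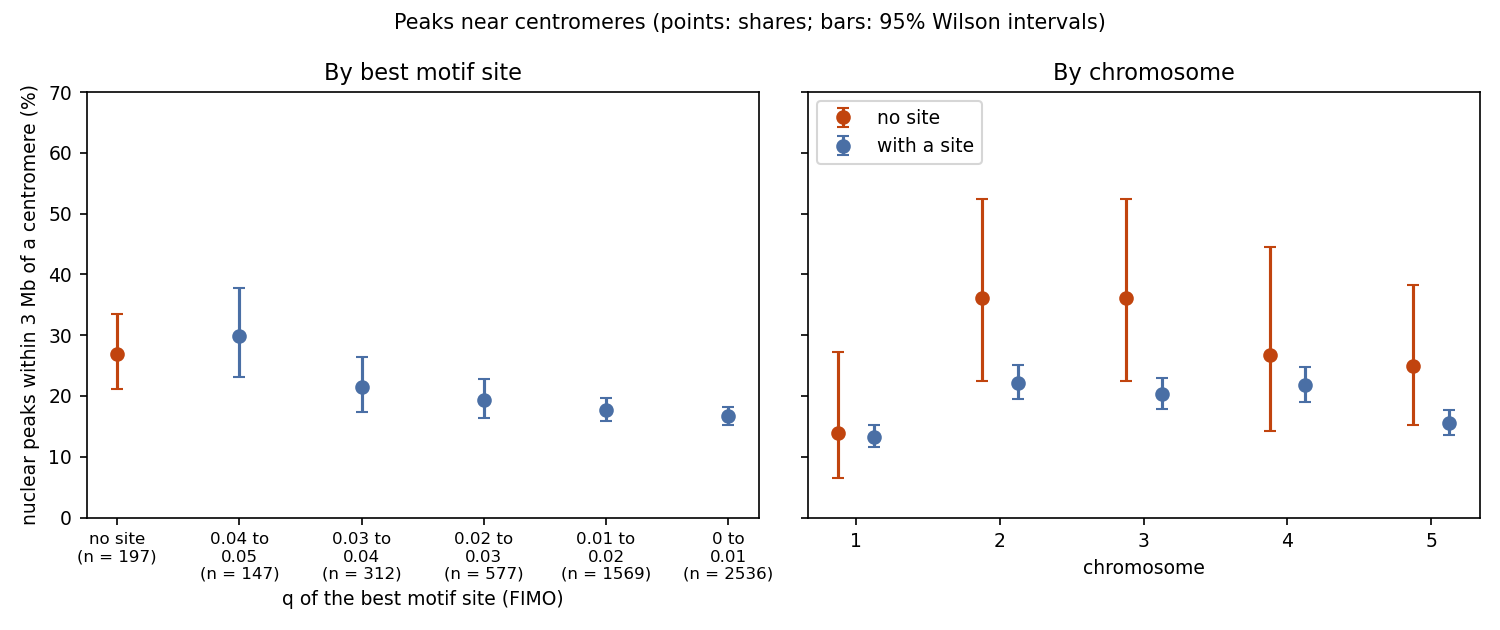
Share of nuclear peaks within 3 Mb of a centromere in percent (vertical axes), by the FIMO q of the best site (left panel) and by chromosome for peaks without a site and with one (right panel); points are shares and bars are 95% Wilson intervals. The share is 26.9% without a site and 29.9% with the weakest sites, against 16.6% with the strongest, and on each chromosome the intervals of the small group without a site are wide.

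The chromosomes themselves held similar shares of peaks without a site. These were 43 of 1349 peaks on chromosome 1 (3.19%), 36 of 901 on chromosome 2 (3.996%), 36 of 1009 on chromosome 3 (3.57%), 30 of 821 on chromosome 4 (3.65%) and 52 of 1258 on chromosome 5 (4.13%), and the 95% Wilson intervals overlap. On the mitochondrial chromosome 5 of 51 peaks had no site (9.80%, 4.26 to 20.98%). These 5 had folds of 2.14 to 5.72, and mitochondrial peaks were 2.48% of peaks without a site against 0.887% of peaks with one (Mantel-Haenszel odds ratio 3.38, 1.31 to 8.69, resting on 5 peaks). A window of chromosome 2 from 3.2 to 3.5 Mb, where a copy of mitochondrial DNA lies in the nuclear genome, was bounded with these peaks known and held 6 peaks without a site among its 27 peaks (22.2%). Their folds of 1.73 to 3.00 were all below 3.84, the median of all peaks without a site. Without this window and the organelle peaks, the ratio of folds was 0.951 (0.922 to 0.980), and the odds ratio for nearness to a centromere was 1.52 (1.08 to 2.13).

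Close neighbours were about as frequent in both groups. Among nuclear peaks, 22 of 197 without a site (11.2%) and 573 of 5141 with one (11.1%) had another peak within 1 kb (odds ratio 1.05, 0.667 to 1.65), an interval that leaves room for a difference in either direction. Within 5 kb the odds ratio was 0.777 (0.578 to 1.05), again with no call.

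The authors assigned a gene to 155 of the 202 peaks without a site (76.7%, 95% Wilson interval 70.4 to 82.0%) and to 4309 of the 5188 with one (83.1%, 82.0 to 84.1%). The odds ratio over classes of width was 0.662 (0.473 to 0.926). Outside the centromere windows the shares were 84.0% and 89.5% (odds ratio 0.584, 0.369 to 0.926), and within them 58.5% and 54.3% (odds ratio 1.17, 0.669 to 2.05). With the windows as strata in place of width the odds ratio was 0.820 (0.572 to 1.18), so the call was lost. Among peaks with no assigned gene, 22 of 45 nuclear peaks without a site and 421 of 862 with one lay near a centromere, at 48.9% and 48.8%. The odds ratio for nearness to a centromere was 1.00 (0.554 to 1.82) there. Among nuclear peaks with an assigned gene (152 without a site, 4279 with one) it was 1.95 (1.29 to 2.92). The difference between these 2 odds ratios was not tested.

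The 155 assigned peaks fell at 155 different genes, of which 152 were matched by locus identifier to a RefSeq table and all of those encode proteins; the other 3 are mitochondrial. They are 3.82% of the 4058 genes with any peak. The table gives no strand and names another assembly, so whether a peak lies in an exon, an intron or a promoter was not analysed here. Positions are given in TAIR10 as in the peak list, the first base being 1.

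The strongest peak without a site ranked 314th of all peaks by fold. It was assigned to AT5G26720 (chromosome 5, 9303739 to 9304079), with a fold of 8.73 and a −log10 q of 29.1. The next was at DET1 (AT4G10180; chromosome 4, 6349129 to 6349443), a repressor of light-driven development in the dark, with 8.42. The peak at AT4G04990 (chromosome 4, 2553983 to 2554297) had 7.67, and a peak with no gene on chromosome 3 (11425950 to 11426366), the widest of these at 417 bp, had 7.52. All 4 of these lay within 3 Mb of a centromere, as did 6 of the 11 peaks that share the 10 highest folds. Of the 4, only AT4G04990 lies within the narrower windows with which the odds ratio for nearness to a centromere lost its call. Among all nuclear peaks without a site 26.9% lay within 3 Mb. Their median fold was 3.93, against 3.84 elsewhere, so no general link between strength and centromeres is read from these few peaks.

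Outside the centromere windows, the highest were AT2G29260 (chromosome 2, 12581740 to 12582062) with a fold of 7.20 and AT4G01910 (chromosome 4, 826787 to 827086) with 7.18. AT3G05165 (chromosome 3, 1463610 to 1463923) and SPCH (AT5G53210; chromosome 5, 21589786 to 21590043) had 7.07 each. SPCH encodes the bHLH factor that starts the stomatal lineage. A fold of 6.47 was shared by AT1G63010 (chromosome 1, 23353894 to 23354217), AT5G28750 (chromosome 5, 10785645 to 10785892) and a peak with no gene on chromosome 2 (4269112 to 4269388), of which the last 2 lay within a centromere window. Equal values recurred often. The fold and −log10 q of 166 of the 202 peaks were exactly those of some peak with a site.

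At the low end, the 5 weakest included AT2G07662 (chromosome 2, 3497412 to 3497656; fold 1.73) and AT2G07806 (chromosome 2, 3488652 to 3488890; 2.13), both in the window with the mitochondrial copy. The others were AT3G20362 (chromosome 3, 7104389 to 7104592) with 1.87 and 2 mitochondrial peaks, at ATMG01110 with 2.14 and without a gene at 2.20. The −log10 q of these 5 peaks ran no higher than 6.98, the value of the last of them.

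At 25 genes (16.1%) a peak without a site stood beside at least 1 peak with one that was assigned to the same gene, with a median gap of 1062 bp (83 to 9887 bp). Of the 3928 genes with a peak with a site, 350 (8.91%) had at least 2 such peaks. These shares are not comparable, and no difference is read from them. The first also counts peaks, as each assigned peak without a site fell at its own gene. The second counts genes only, and each of the 350 holds at least 2 of the 4309 assigned peaks with a site. The share of those peaks with another on the same gene is thus higher than 8.91%, and it was not computed. The peak without a site had the lower fold at 18 of the 25 genes, the higher fold at 6 and an equal fold at 1, compared with the strongest peak with a site, and the median difference was -0.58. Width was not held in these pairs. Over all peaks without a site, 31.7% exceeded the median fold of peaks with one, so the pairs add little to the difference between the groups. The strongest of several peaks is high by selection, but at 20 of the 25 genes only 1 peak with a site was present. At SPCH the fold was 7.07 without a site, against 9.77 in the peak with 2 sites that lay 1183 bp away. At ADF5 (AT2G16700), which encodes an actin depolymerizing factor, it was 3.51 against 7.71, and at CUL2 (AT1G02980), a cullin gene, 5.42 against 9.02 and 3.67 in its 2 peaks with sites.

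At the 6 other genes the peak without a site was the stronger one. At AT5G28750 it had a fold of 6.47, against 3.33 in a peak with 1 site. At AT3G05165 it had 7.07, against 4.13 and 4.01 in the peaks with sites on the same gene, the nearer only 108 bp away. AFP3 (AT3G29575), which encodes a protein that binds factors of the abscisic acid response, had 5.72 without a site and 3.93 with 2 sites. The remaining genes of this kind were PP2-A12 (AT1G12710; 5.22 against 3.66), AT3G42180 (5.72 against 4.24) and the mitochondrial ATMG00670 (2.89 against 2.40). At NAC075 (AT4G29230), a NAC transcription factor gene, the folds were 3.86 without a site and 3.99 in the stronger of its 2 peaks with sites.

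**Figure D4:**
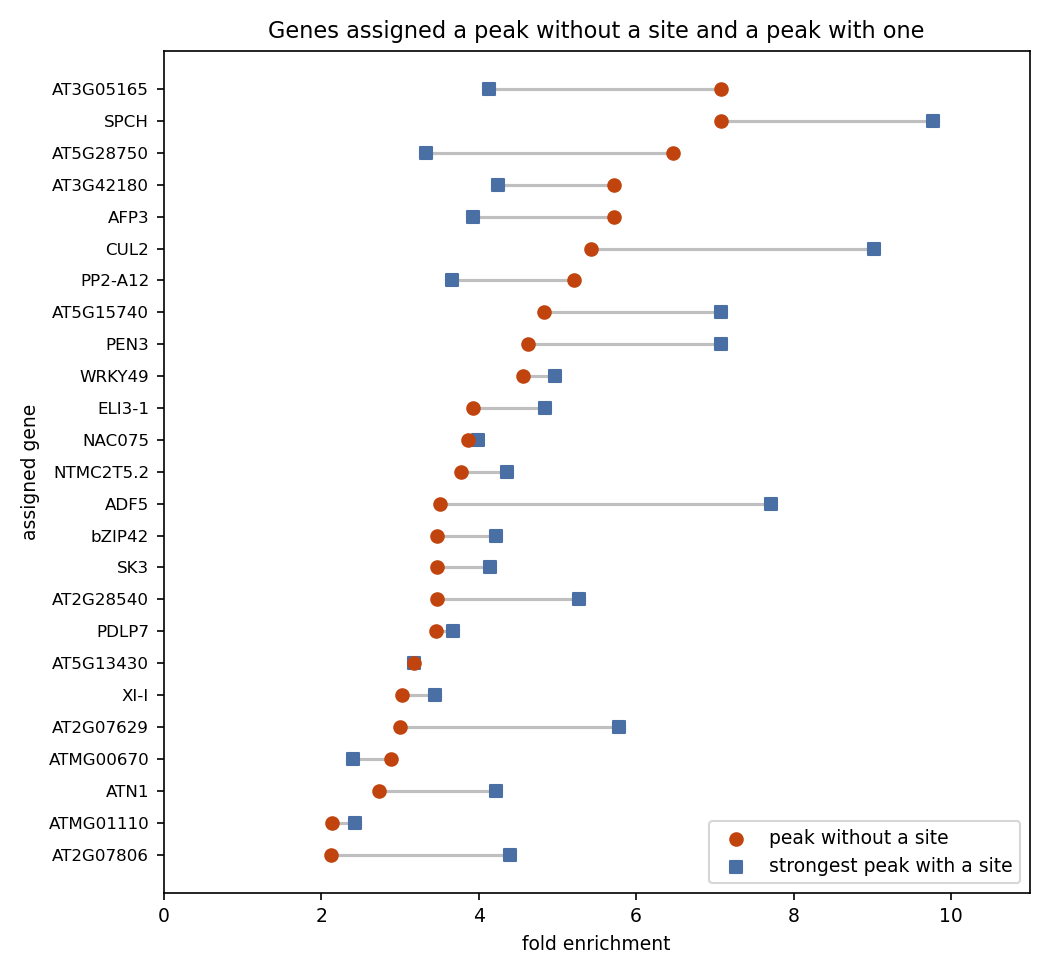
Fold enrichment (horizontal axis) at the 25 genes (vertical axis) assigned both a peak without a site (circles) and a peak with one (squares, the strongest where there are several). The circle lies at the left of the square at 18 genes, at its right at 6, and on it at AT5G13430, where both have 3.18.

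None of the genes on the lists of wall and barrier pathways had a peak without a site. The lists covered phenylpropanoid and lignin, suberin, flavonoid, cutin and wax, and xylem wall genes with the regulators of suberin and endodermis, and 114 of their 122 symbols matched 1 gene each. Of these 114 genes 49 had a peak with a site, and 0 of 49 with a peak allows a share of up to 6.12%, which is above the 3.82% found over all genes with a peak. The list-wise counts of genes with a peak with a site were 12 of 20, 9 of 17, 9 of 19, 8 of 24, 8 of 19 and 3 of 15 in the order given. The data thus do not separate these lists from other genes in how often a peak lacks a site.

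Gene families were matched by a family name with a number among each gene's symbol and synonyms, which misses members with other names. The bHLH gene SPCH, which has a peak without a site, was missed in this way. Homeodomain genes such as ANL2, which also has such a peak, were not among the families searched. Among the genes matched, 5 transcription factor genes and 1 peroxidase gene had such a peak. MYB23 (AT5G40330; chromosome 5, 16128321 to 16128662), an R2R3 MYB gene of trichome and root hair patterning, had a fold of 4.83. It was the 1 gene of 125 with a MYB name that had such a peak, whereas 25 had a peak with a site. WRKY49 (AT5G43290) and WRKY74 (AT5G28650) had 4.56 and 4.53. A peak with a site was present at 18 of 71 WRKY genes, WRKY49 among them. NAC049 (AT3G04430) had 4.40 and NAC075 had 3.86. A peak with a site was present at 14 of 100 NAC genes, NAC075 among them. The few MYB, WRKY and NAC genes with a peak without a site were not tested against the 3.82% found over all genes with a peak. The share of all genes that have a peak was not computed, so no enrichment is read from the family counts. The peroxidase gene AT5G64120, also called PRX71, had 3.87, and 0 of the 14 genes matched by a PRX name had a peak with a site. Peroxidase genes under other names were not counted, so these counts do not describe the whole family. The ABCG transporters, of which 20 of 43 had a peak with a site, had none without a site, nor did the laccases (5 of 17), the ERF factors (6 of 26) or the genes with a bHLH name (5 of 22). The counts of 0 allow shares of up to 15% for the ABCG genes with a peak, 60% for the laccases, 50% for the ERF factors and 60% for the bHLH names, so these families are not shown to differ from other genes.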

How the data were processed

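The series has 4 libraries, 2 of MYB67 and 2 of the empty vector, and its deposited files describe 1 peak list. The submitters' processing notes name the build TAIR10, the peak caller MACS3 3.0.0a7, the aligner STAR 2.7.10a, Picard 2.27.1, Trimmomatic 0.39, bedtools, FastQC and HOMER. How the libraries were combined is not stated there. The authors' deposited peak list gives a fold enrichment (a ratio), a −log10 q and a score, which is 10 times the −log10 q without its decimals. The authors' deposited gene table repeats the fold and gives the q-value. Per the file headers, the motif file holds the fraction of each base, and the site list a q-value per FIMO site without its position. The table's column for the motif and the site list gave the same 202 peaks.

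Differences in fold (as log2), −log10 q and summit position were estimated by least squares across all peaks with a natural spline of log2 width (4 degrees of freedom) and robust standard errors. Shares were compared by the Mantel-Haenszel odds ratio over 10 width classes, using statsmodels 0.14.6. A difference was called where the 95% interval left out no difference. Both methods were tested on simulated data. No replicate error exists, no p-value was computed, and a count of 0 allows up to 3 counts, which covers counting error only. Gene names came from the RefSeq table of TAIR10.1.

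The members and lists were chosen with earlier results of these data known. Peaks named are the 10 highest and 5 lowest by fold, organelle peaks and genes of the lists. Genes that also have a peak with a site were named after their values were seen. No genome sequence was used, so base composition and the best motif match were not analysed here.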

Additional observations from a re-analysis of the deposited data

How the results depend on the processing

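No paired analysis was possible because no deposited column belongs to a single library, and for the same reason no replicate could be left out. The planned comparisons of GC content and of the best motif match were not run, since no genome sequence was used. The ratio of folds stayed below 1 in every alternative run that gives a ratio, the rank of the fold in its place was lower without a site by a difference of -6.52 percentile points (-9.79 to -3.25), and the ratio lost its call at a −log10 q of at least 10 (0.945) and against peaks with a best site q above 0.04 (0.959). The difference in −log10 q kept its direction and call in all 7 alternatives, with -3.04 where the −log10 q reached 10 and -4.67 without the width term. Settings limited to a −log10 q of at least 10 or to the upper 50% by fold select peaks on strength itself. For the fold and the −log10 q they are therefore not independent checks. The odds ratio for an assigned gene lost its call at a −log10 q of at least 10 (0.711), against peaks with exactly 1 site (0.706), against a best site q above 0.04 (0.720) and with centromere windows as strata (0.820), and turned to 1.17 within those windows. The odds ratio for mitochondrial peaks lost its call among the upper 50% by fold (2.94, 0.372 to 23.2) and was 6.90 against peaks with a best site q up to 0.01. The odds ratio for nearness to a centromere lost its call with windows of 2 Mb (1.27) and among peaks with no gene (1.00), and turned to 0.863 against a best site q above 0.04. It kept its call among peaks with an assigned gene (1.95). That for a neighbouring peak, never called, turned to 0.777 at 5 kb. The summit difference, not called, turned to -0.41 among the upper 50% by fold and to -0.037 at a −log10 q of at least 10, and was called only without the width term (1.23 percentage points). Peaks were fewer in the restricted settings, and the cause of these changes was not tested otherwise. Comparisons with a best site q above 0.04, by centromere window or gene, and without single chromosomes or the window on chromosome 2 were chosen after seeing the data.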

Other observations

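Further genes with a peak without a site were picked by name after their values were seen, and no group of them was tested. In the cell wall, CESA6 (AT5G64740; chromosome 5, 25880587 to 25880831), a cellulose synthase of primary walls, had a fold of 5.72. XT2 (AT4G02500), a xyloglucan xylosyltransferase, had 3.78, GH9B8 (AT2G32990), of the glycosyl hydrolases 9B, 3.87, and RGXT3 (AT1G56550), named for the xylosylation of rhamnogalacturonan, 3.70. ELI3-1 (AT4G37980), also listed as cinnamyl alcohol dehydrogenase 7, had 3.93 without a site, against 4.85 in its peak with 2 sites. In cytokinin metabolism and response, IPT3 (AT3G63110; chromosome 3, 23321422 to 23321653), which makes cytokinin, had 6.34, CKX3 (AT5G56970), which degrades it, 3.21, and RR2 (AT4G16110), a response regulator, 2.39. Among epidermal regulators, ANL2 (AT4G00730), a homeodomain gene named for its part in anthocyanin accumulation, had 4.98 and TCL1 (AT2G30432), an inhibitor of trichome formation, 4.38. VIM1 (AT1G57820), needed to maintain DNA methylation, had 4.81, and CYP79B2 (AT4G39950), of indole glucosinolate and camalexin synthesis, 2.96.

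The shortest width in the list is 195 bp, and 20 of the 202 peaks without a site had it (9.90%), against 297 of the 5188 with one (5.72%).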
